A study of Homo sapiens with 14 samples.

Results

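Transcripts of the 3 genes that encode the subunits of cleavage factor I (CFIm), NUDT21, CPSF6 and CPSF7, were followed through every group of a gene-level RNA-seq experiment. They were taken by symbol and matched to their Ensembl gene identifiers, 3 of the 18006 genes in the count table, and all 3 passed the filter on low counts that left 12080 genes for testing. The cells were HEK 293, an established line of human embryonic kidney origin. The 14 libraries form 5 groups: 3 of control cells labelled wild type, 2 of cells with CFIm25 knocked down by siRNA, 3 with CFIm25 overexpressed, 3 with CFIm68 knocked down by siRNA and 3 with CFIm68 overexpressed. The sources used here do not give the treatment of the controls (siRNA or vector), nor the construct, promoter or clone behind the overexpression. The labels do not say that the replicates are separate cultures, and the p-values therefore rest on differences among libraries that may be technical in part or whole.

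CFIm is an early-binding part of the machinery that cuts pre-mRNA and adds the poly(A) tail. CFIm25, the product of NUDT21, is a Nudix-fold protein without hydrolase activity that reads the RNA tetramer UGUA upstream of a cleavage site. It pairs with a large subunit, either CFIm68 from CPSF6 or CFIm59 from CPSF7, each with an RNA recognition motif and an arginine- and serine-rich tail that contacts the rest of the machinery. The complex is known for favouring distal over proximal poly(A) sites, so that its loss shortens many 3' UTRs, and CFIm68 is also known as a nuclear import partner of the HIV-1 capsid.

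NUDT21 (ENSG00000167005) lies on the minus strand of chromosome 16 at 56429133 to 56452199, CPSF6 (ENSG00000111605) on the plus strand of chromosome 12 at 69239537 to 69274358, and CPSF7 (ENSG00000149532) on the minus strand of chromosome 11 at 61402641 to 61430031, all in hg38 with GENCODE 29. The element the complex reads is present near some of the annotated ends of all 3 transcripts, and examples are shown for that reason. The CPSF7 ends with 3' UTRs of 162 and 291 bases hold 0 UGUA in their last 100 bases and 0 poly(A) signals (AAUAAA or AUUAAA) in their last 50. Each RNA window is 30 bases around a UGUA within the last 100 bases of an annotated coding transcript, from the GENCODE 29 transcript sequences, 5′ to 3′, with UGUA in capitals.
NUDT21, end of the 3579-base 3' UTR, chr16:56429196-56429225, minus strand: auauuuuuauauuUGUAaaguaaguuuggu
CPSF6, end of the 431-base 3' UTR, chr12:69269867-69269896, plus strand: auaugauaaugucUGUAaacagcaucacuu
CPSF6, end of the 4850-base 3' UTR, chr12:69274314-69274343, plus strand: augguauuuaucuUGUAuugaaaauaaaac
CPSF7, end of the 2069-base 3' UTR, chr11:61402681-61402710, minus strand: auuuuuuuccuuuUGUAacaaaauauuuuu

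The UGUA shown began 80 bases before the annotated end in NUDT21, 60 and 32 bases before it in the short and long CPSF6 transcripts and 57 bases before it in CPSF7, and the poly(A) signal AAUAAA lay within the last 50 bases in each of these 4, as it does in 62.23% of genes. Over 18193 coding genes, 53.25% have UGUA on the RNA strand in the last 100 bases of the longest annotated 3' UTR, so its presence there is common. Over the whole longest 3' UTR, NUDT21 held 30 copies (8.38 per kilobase, above 85.5% of genes), CPSF6 held 49 (10.1 per kilobase, above 92.7%) and CPSF7 held 6 (2.90 per kilobase, above 28.7%), against a median of 4.77. The 3 genes stand in the same order in A and U content, at 65.7%, 68.2% and 52.6% of bases against a median of 57.2%. CPSF6 was the one member with annotated ends both close to and far from its stop codon at which UGUA and AAUAAA were both found. Counts per gene do not show which end was used.

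Library totals ran from 15822467 to 33895308 counts, and the CFIm25 knockdown libraries, at 22464083 and 33895308, were deeper than the controls, at 17734490 to 18385536. Levels are given as CPM, the count scaled to the library's size after TMM normalization. The smallest raw count of any member in any library was 1017. Rose and fell are written of changes with an edgeR adjusted p under 0.05, adjusted over all tested genes by the Benjamini-Hochberg method. Overlap between the libraries of a group and the controls is described for the members and their ratios alone. How often other genes show no overlap was not counted. Of the genes typical of HEK 293, NEFL (276 CPM in control) and VIM (713) were well expressed, while PAX2 (2.15), LHX1 (0.649) and NEFM (0.409) were near the floor. Of the markers of other cell types, KRT5, KRT14, PTPRC, CD3E and ALB reached at most 0.288 CPM in any library and COL1A1 was at 24.8 to 64.4 CPM. In bulk libraries a lower level in every cell and a loss from a share of the cells cannot be told apart.

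**Figure D1:**
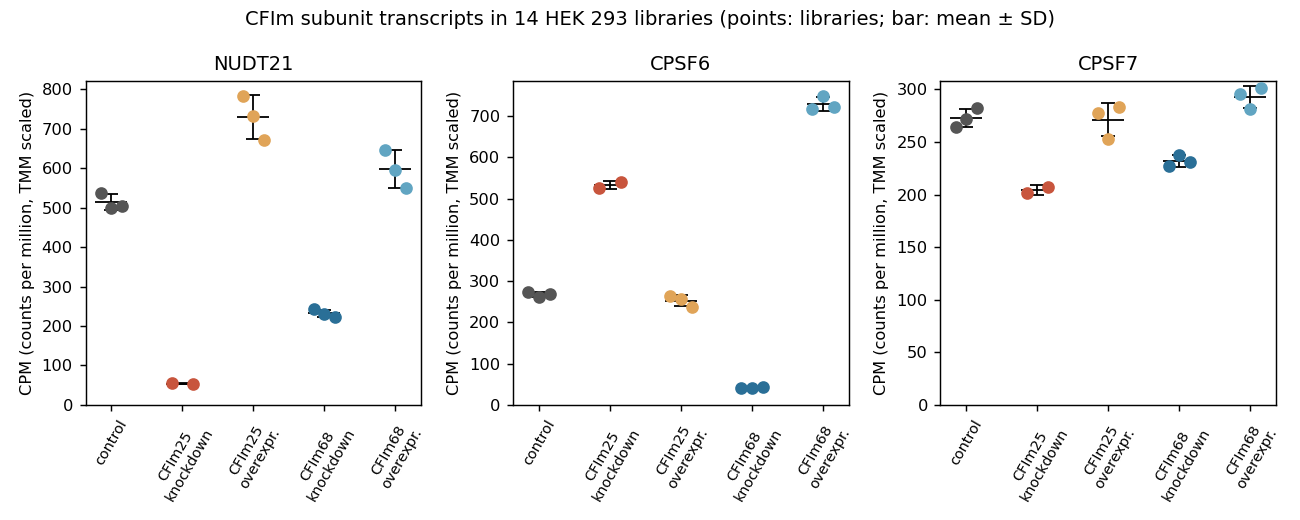
CPM of NUDT21, CPSF6 and CPSF7 in each of the 14 libraries (points), with the group mean and SD (bars), on axes that start at 0. NUDT21 and CPSF6 fall to their lowest levels where they were targeted, and CPSF6 stands above control in CFIm25 knockdown, whereas CPSF7 moves within 201 to 301 CPM.

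NUDT21, the RNA-reading subunit, was at 537, 500 and 505 CPM in the control libraries. CFIm25 knockdown left 54.6 and 52.9 CPM, 10.5% of the control mean. CFIm25 overexpression gave 782, 734 and 671 CPM, 142% of the control mean. Neither group overlapped the controls, so the transcript stood where each group's label puts it. The log2 changes were -3.26 ± 0.08 (SE) and 0.50 ± 0.06 (edgeR adjusted p = 3.5e-23 and 2.0e-08). Of the 12080 genes tested 47.6% passed in CFIm25 knockdown and 56.7% in CFIm25 overexpression. NUDT21 ranked 2 from the lowest in knockdown, whereas in overexpression 23.0% of genes changed at least as far as it did, in either direction.

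The other subunit's groups moved NUDT21 too. CFIm68 knockdown held 242, 231 and 224 CPM, all below control and all above CFIm25 knockdown. CFIm68 overexpression held 646, 597 and 550 CPM, all above control. The knockdown left 45.2% of the control level (log2 change -1.14 ± 0.06, edgeR adjusted p = 1.9e-15, where 56.4% of genes passed), and 4.31% of genes changed as far. The overexpression reached 116% (0.22 ± 0.06, edgeR adjusted p = 0.0049, where 29.8% of genes passed), a change that did not pass once the median of 50 neighbouring genes was removed (0.096 ± 0.058, limma adjusted p = 0.25). Across the CFIm68 groups NUDT21 was thus low where CPSF6 was knocked down and, by a smaller step, high where it was overexpressed.

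CPSF6, which encodes the large subunit CFIm68, was at 274, 262 and 268 CPM in control. It fell to 40.5, 41.8 and 42.5 CPM in CFIm68 knockdown, 15.5% of control. It rose to 717, 750 and 723 CPM in CFIm68 overexpression, 272% of control. Each of these 6 libraries lay outside the control range, and the SD within a group was at most 2.39% of its mean. The log2 changes were -2.69 ± 0.05 and 1.45 ± 0.05 (edgeR adjusted p = 3.2e-25 and 1.3e-19). CPSF6 ranked 6 from the lowest of all tested genes in its knockdown and 37 from the highest in its overexpression.

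Loss of CFIm25 had the opposite sign for CPSF6 from that which loss of CFIm68 had for NUDT21. In CFIm25 knockdown CPSF6 stood at 526 and 540 CPM, 199% of control and above every control library. The log2 change was 0.99 ± 0.05 (edgeR adjusted p = 1.7e-14), and 4.57% of tested genes changed as far. In CFIm25 overexpression it was at 263, 256 and 237 CPM, which overlapped control. That change, -0.088 ± 0.048 with a 95% interval of -0.19 to 0.010, did not pass (edgeR adjusted p = 0.12). CPSF6 thus differed between the opposite CFIm25 perturbations, with a log2 difference of -1.08 ± 0.05 for overexpression against knockdown (edgeR adjusted p = 1.4e-15, where 56.1% of genes passed), with the distance from control on the knockdown side. The controls are the same 3 libraries in all comparisons against control.

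CPSF7, which encodes the alternative large subunit CFIm59 and was targeted in no group, was at 265, 272 and 282 CPM in control. CFIm25 knockdown held 201 and 208 CPM, and CFIm68 knockdown 227, 238 and 231 CPM. All 5 knockdown libraries lay below all 3 controls, though how many other genes do so was not counted. The log2 changes were -0.42 ± 0.06 and -0.24 ± 0.05 (edgeR adjusted p = 8.1e-07 and 2.2e-04), sizes that 25.9% and 52.7% of tested genes reached, so CPSF7 moved less than the targeted subunits and near the middle of all genes in CFIm68 knockdown. Overexpression of CFIm25 gave 277, 253 and 283 CPM. Overexpression of CFIm68 gave 296, 282 and 301 CPM, and both groups overlapped control. Their changes of -0.0088 ± 0.050 (95% interval -0.11 to 0.094) and 0.10 ± 0.05 (-0.0022 to 0.20) did not pass (edgeR adjusted p = 0.89 and 0.13).

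**Figure D2:**
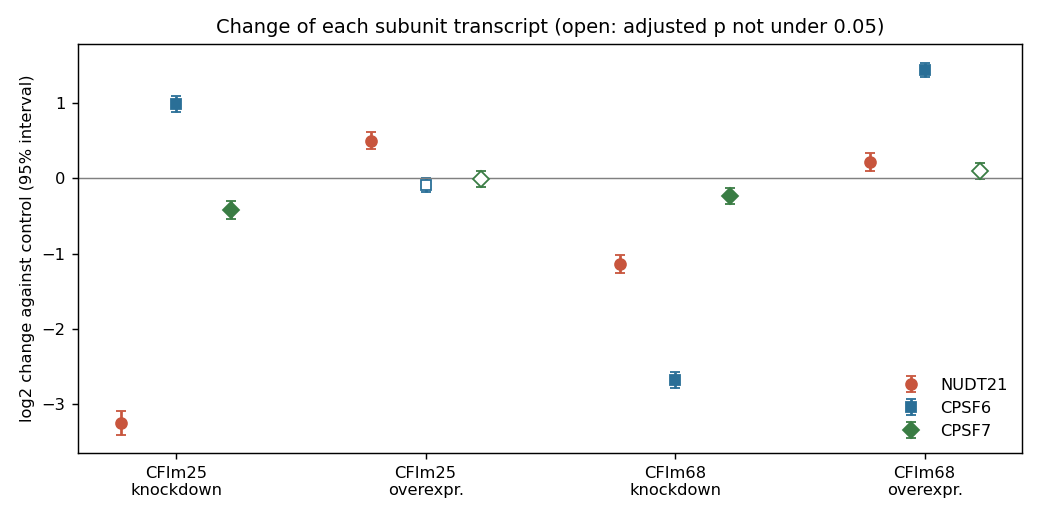
Log2 change of each subunit transcript against control in the 4 perturbed groups, with 95% intervals; open symbols mark changes with an adjusted p of 0.05 or more. CPSF6 is at 0.99 in CFIm25 knockdown where NUDT21 is at -3.26, and NUDT21 is at -1.14 in CFIm68 knockdown where CPSF6 is at -2.69.

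All 10 pairs of groups were compared for each gene, to set the order of the levels. Outside the comparisons already given, 60.9% of tested genes passed between CFIm68 overexpression and CFIm25 knockdown, 64.5% between CFIm68 knockdown and CFIm25 overexpression, 63.7% between the overexpression groups and 67.1% between CFIm68 overexpression and knockdown. For NUDT21 all 10 pairs passed, and the order from low to high was CFIm25 knockdown, CFIm68 knockdown, control, CFIm68 overexpression and CFIm25 overexpression. The last step of that order, CFIm68 against CFIm25 overexpression, was -0.29 ± 0.06 (edgeR adjusted p = 7.2e-05). For CPSF6 9 of 10 passed, and the order was CFIm68 knockdown, CFIm25 overexpression and control, which were not distinguished from each other, CFIm25 knockdown and CFIm68 overexpression. The gain of CPSF6 transcript in CFIm25 knockdown stayed below that in CFIm68 overexpression, where it was 0.45 ± 0.05 higher (edgeR adjusted p = 2.1e-08).

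For CPSF7 7 of 10 pairs passed. Both knockdowns were below both overexpression groups and control, whereas control, CFIm25 overexpression and CFIm68 overexpression were not told apart by the test on all libraries. CFIm68 overexpression was 0.11 ± 0.05 above CFIm25 overexpression (95% interval 0.0067 to 0.21, edgeR adjusted p = 0.058), and this pair passed without CFIm25 overexpression replicate 3 (0.14, 0.029) or CFIm68 overexpression replicate 2 (0.14, 0.041). CPSF7 was 0.18 ± 0.06 higher in CFIm68 than in CFIm25 knockdown (edgeR adjusted p = 0.018, where 24.2% of genes passed). That call was lost without CFIm25 knockdown replicate 1 (0.16, edgeR adjusted p = 0.17), without CFIm25 knockdown replicate 2 (0.21, 0.056) and without CFIm68 knockdown replicate 2 (0.16, 0.077).

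A ratio of transcripts within a library does not depend on how that library is scaled. Levels were compared between genes per kilobase of merged exons (5954 bases for NUDT21, 8082 for CPSF6 and 6036 for CPSF7). On that scale control held 86.4 ± 3.29 (SD, n = 3) CPM per kilobase of NUDT21, 33.2 ± 0.716 of CPSF6 and 45.2 ± 1.46 of CPSF7. NUDT21 and the large subunits together were thus near parity, at a ratio of 1.10 (geometric mean; 0.21, 0.12 and 0.087 as log2 in the 3 libraries). This depends on the exon length chosen, since 3' UTR use would change the length per transcript, and no value here measures it.

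The ratio of NUDT21 to the large subunits lay outside the control range in all 4 perturbed groups, each of which targeted a transcript that enters it. It was 0.0932 and 0.0878 in CFIm25 knockdown, 12.2-fold below control. It was 1.67, 1.67 and 1.48 in CFIm25 overexpression, 1.46-fold above control. In CFIm68 knockdown it was 0.954, 0.872 and 0.864, and in CFIm68 overexpression 0.787, 0.719 and 0.662, below control in both. The differences from control were -0.30 ± 0.06 and -0.61 ± 0.08 on the log2 scale (SE). In CFIm68 knockdown the summed large subunits, a sum that was not tested, went from 78.4 ± 1.31 to 43.6 ± 0.952 CPM per kilobase. NUDT21 went from 86.4 ± 3.29 to 39.0 ± 1.56. In CFIm68 overexpression the sum, which holds the targeted CPSF6, was 139 ± 0.947, and NUDT21 was above control at 100.3 ± 8.05. None of these groups overlapped control (exact permutation test, two-sided, p = 0.1 for each, the smallest p that 3 against 3 or 2 against 3 libraries allow).

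The mix of large subunits shifted as well. CPSF6 per CPSF7 was 0.773, 0.720 and 0.710 in control, so CPSF7 was the more abundant per kilobase. CFIm25 knockdown gave 1.95 and 1.94, and CFIm68 overexpression 1.81, 1.99 and 1.80. CPSF6 thereby made up 66.1% ± 0.069 (n = 2) and 65.1% ± 1.29 (n = 3) of the summed large-subunit level in these groups, against 42.3% ± 1.12 in control, although CPSF6 was targeted for overexpression in the second alone. The log2 differences from control were 1.41 ± 0.04 and 1.34 ± 0.06 (exact permutation test, p = 0.1 for both). In CFIm68 knockdown the share was 11.8% ± 0.236, with a log2 difference from control of -2.45 ± 0.04. CFIm25 overexpression overlapped control, at 0.709, 0.755 and 0.626 (-0.080 ± 0.088, exact permutation test, p = 0.4). Adjusted over the 8 ratio comparisons, these p-values were 0.114 and 0.4. Both overexpression groups were scaled by the same exon lengths as control, and the length of any construct's transcript is not given. Their ratios and shares per kilobase may therefore not be on the scale of the other groups.

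**Figure D3:**
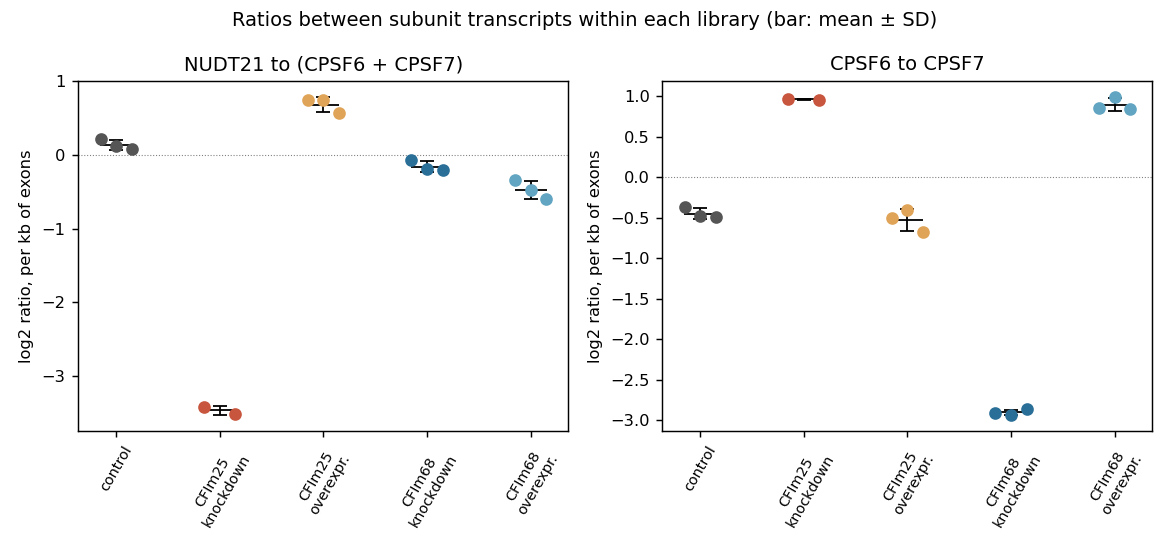
Log2 ratios per kilobase of exons within each library, NUDT21 to CPSF6 plus CPSF7 on the left and CPSF6 to CPSF7 on the right (points: libraries; bars: mean ± SD). CFIm25 knockdown and CFIm68 overexpression stand together above 0 on the right, with group means of 0.96 and 0.90, and CFIm68 knockdown is at -2.90.

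The genes beside each subunit gene were read to see whether a subunit moved with its neighbourhood. They were taken by position among the tested genes, whatever their values. OGFOD1, a prolyl hydroxylase gene, starts within the NUDT21 locus on the opposite strand at 56451490 and shares 0 exonic bases with it. Where NUDT21 fell 9.57-fold in CFIm25 knockdown, OGFOD1 was at 128 CPM against 123 in control (0.060 ± 0.059), and BBS2 (-0.045 ± 0.056) and LPCAT2 (0.15 ± 0.08) did not pass either (edgeR adjusted p = 0.42, 0.53 and 0.15). In CFIm68 knockdown OGFOD1 (-0.19 ± 0.05) and BBS2 (-0.32 ± 0.05), a Bardet-Biedl syndrome gene, fell, and in CFIm25 overexpression they rose (0.25 ± 0.05 and 0.20 ± 0.05), in the direction of NUDT21 and by less. LPCAT2 rose in CFIm68 knockdown (0.23 ± 0.08), a call lost without control replicate 3 (0.17) or CFIm68 knockdown replicate 1 (0.20). The far ends of OGFOD1 and BBS2 overlap on opposite strands, and so do those of MDM2 and the carboxypeptidase M gene beside CPSF6, so reads of such pairs may not be fully separated where counting ignored strand.

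Beside CPSF6, MDM2, the p53 ubiquitin ligase gene, fell in both knockdowns (-0.87 ± 0.16 and -0.79 ± 0.15), and the gene for carboxypeptidase M rose in both (0.75 ± 0.10 and 0.96 ± 0.09). YEATS4, a chromatin reader gene, rose in CFIm25 overexpression (0.57 ± 0.07) and in CFIm25 knockdown (0.25 ± 0.07), the latter a call lost without control replicate 2 (0.18) or without CFIm25 knockdown replicate 1 (0.18). FRS2, an adaptor of growth factor receptors, rose in CFIm68 knockdown (0.51 ± 0.09) and fell in CFIm25 overexpression (-0.38 ± 0.10). In CFIm68 overexpression, where CPSF6 rose 2.72-fold, 0 of these 4 passed, although MDM2 (0.30 ± 0.14, edgeR adjusted p = 0.10) did without control replicate 2 (0.44, 0.035) or CFIm68 overexpression replicate 3 (0.46, 0.016).

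Beside CPSF7, SDHAF2 starts just beyond the start of CPSF7 on the opposite strand. It was at 17.5 CPM in control and 20.8 in CFIm68 knockdown (0.25 ± 0.08), where CPSF7 fell, a call lost without control replicate 1 (0.19) or CFIm68 knockdown replicate 3 (0.21). It fell to 11.9 CPM in CFIm25 overexpression (-0.55 ± 0.09). Its change in CFIm25 knockdown (0.19 ± 0.09, edgeR adjusted p = 0.087) passed only without control replicate 2 (0.25, 0.047) among the single libraries left out. TMEM216, a cilium gene, was at 8.47 CPM in control and rose by 0.32 ± 0.12 in CFIm25 knockdown and 0.30 ± 0.11 in CFIm25 overexpression, calls both lost without control replicate 3 (0.22 and 0.20), the first also without either CFIm25 knockdown library (0.31 and 0.33) and the second without CFIm25 overexpression replicate 3 (0.25). PPP1R32, at 2.33 CPM in control, fell in both knockdowns (-1.17 ± 0.28 and -1.60 ± 0.27) and rose in CFIm68 overexpression (1.18 ± 0.21). Its fall in CFIm25 knockdown was not past the test without CFIm25 knockdown replicate 2 (-0.92), and its rise in CFIm25 overexpression (0.52 ± 0.22) was lost without any of 5 single libraries (control replicates 1 and 3, CFIm25 overexpression replicates 2 and 3 and CFIm68 knockdown replicate 3; 0.36 to 0.52). CYB561A3 was under 1 CPM and did not pass in any group. Over the 11 neighbours reported, 5 passed in CFIm25 knockdown (3 higher, 2 lower) and 7 in CFIm25 overexpression (5 higher, 2 lower). In CFIm68 knockdown 8 passed (4 higher, 4 lower) and in CFIm68 overexpression 1 (higher), against 47.6%, 56.7%, 56.4% and 29.8% of all tested genes.

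**Figure D4:**
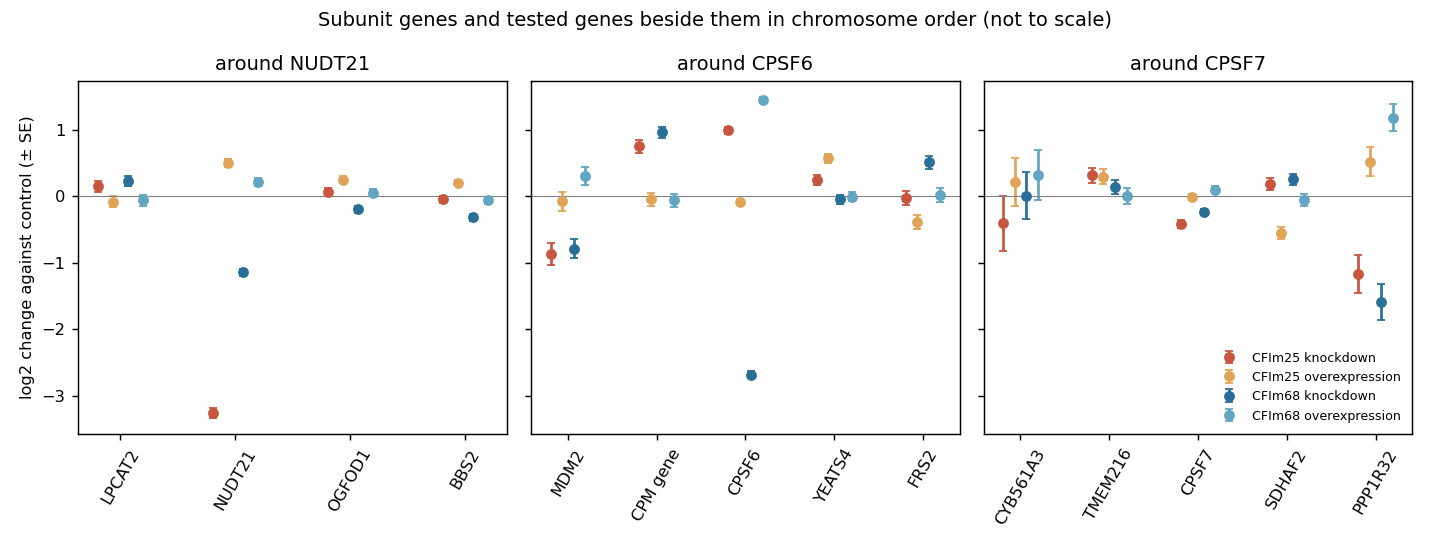
Log2 change against control (± SE) of each subunit gene and the tested genes reported beside it, in chromosome order and not to scale. The falls of NUDT21 to -3.26 and of CPSF6 to -2.69 are larger than any change drawn for the genes beside them. CPSF7, at -0.42 and -0.24 in CFIm25 and CFIm68 knockdown, changed less than PPP1R32 beside it (-1.17 and -1.60, from 2.33 CPM in control).

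The other cores of the 3' end machinery were read from a list of 22 genes without CFIm, of which 18 were tested. In CFIm25 knockdown 6 rose, 5 fell and 7 did not pass, with a median log2 change of 0.0025 (all tested genes 0.0047). Over all tested genes 24.4% rose and 23.2% fell there. In CFIm68 knockdown 5 rose and 8 fell (median -0.022, all genes 0.00079), against 28.3% and 28.1% of all genes. CPSF2, a scaffold partner of the cleavage endonuclease, led the rises in both (0.57 ± 0.06 and 0.58 ± 0.05). CPSF1, the largest CPSF subunit, fell in both (-0.49 ± 0.06 and -0.46 ± 0.05), as did the phosphatase gene SSU72 (-0.54 ± 0.06 and -0.36 ± 0.06).

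The same list had 6 higher and 8 lower in CFIm25 overexpression (median -0.10, all genes -0.0019), against 27.7% and 29.1% of all genes. There CPSF1 fell (-0.64 ± 0.06) and CPSF2 (0.47 ± 0.05) and CPSF4 (0.44 ± 0.07), a zinc finger subunit, rose. CPSF2 and CPSF1 thus had the same sign in CFIm25 knockdown and in CFIm25 overexpression, unlike NUDT21 itself. In CFIm68 overexpression 1 rose and 4 fell (median -0.066, all genes 0.0088), against 14.5% and 15.4% of all genes. Among those that fell were the endonuclease gene CPSF3 (-0.29 ± 0.05), CPSF2 (-0.27 ± 0.05) and the phosphatase gene PPP1CB (-0.27 ± 0.06). The share of members past the test, 11, 14, 13 and 5 of 18 in the order CFIm25 knockdown, CFIm25 overexpression, CFIm68 knockdown and CFIm68 overexpression, stands beside 47.6%, 56.7%, 56.4% and 29.8% of all genes. The count table lists RBBP6 at 0 throughout, and no source used here says why.

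**Figure D5:**
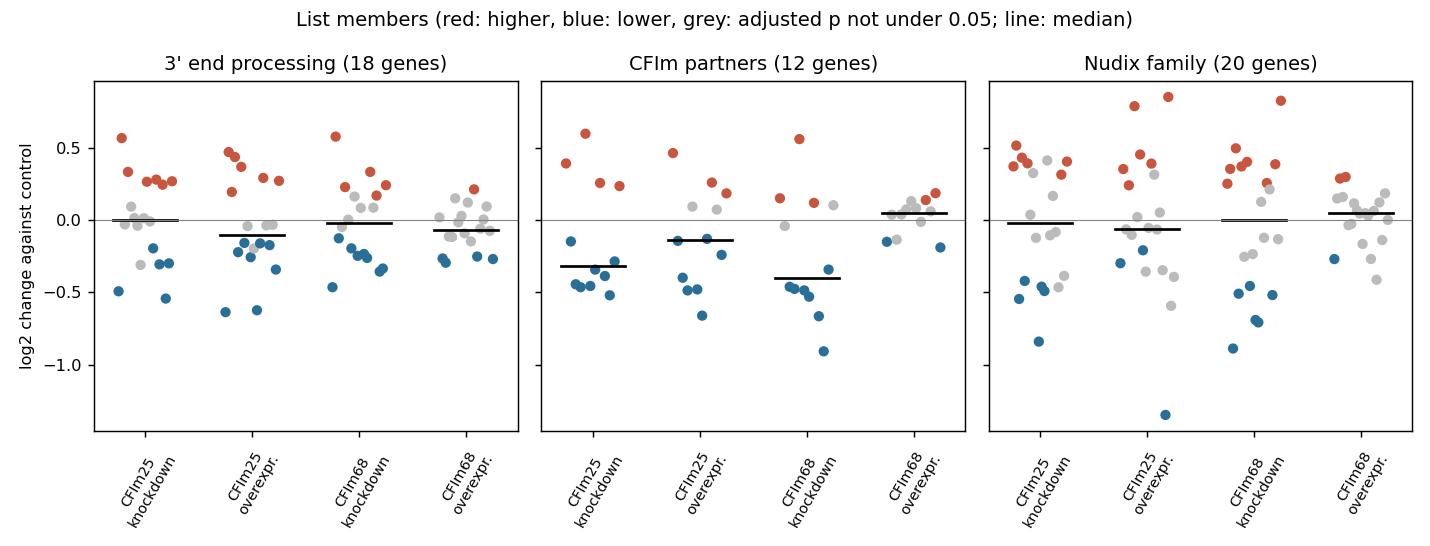
Log2 change against control of each tested member of the 3 lists (points, coloured by the edgeR call) with the list's median (line). Partners of CFIm have medians of -0.31 and -0.40 in the knockdowns of CFIm25 and CFIm68, whereas the medians of the other lists in these groups lie between -0.023 and 0.0025. In CFIm25 overexpression the medians are -0.14 for partners, -0.10 for 3' end processing and -0.059 for the Nudix family, so a lower partner median is not confined to the knockdowns.

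A list of 13 genes whose proteins are known to bind, import or modify CFIm subunits had 12 tested members, since TRA2B is listed at 0 throughout. All 12 of them passed in CFIm25 knockdown, 4 higher and 8 lower (median -0.31), and 10 in CFIm68 knockdown, 3 higher and 7 lower (median -0.40). Over all tested genes 24.4% rose and 23.2% fell in the first (median 0.0047), and 28.3% and 28.1% in the second (0.00079). The 7 members lower in both were the splicing factor genes U2AF2 (-0.46 ± 0.06 and -0.48 ± 0.05), SRSF7 (-0.39 ± 0.05 and -0.66 ± 0.05) and TRA2A (-0.52 ± 0.07 and -0.91 ± 0.07), SNRNP70 of the U1 particle (-0.34 ± 0.08 and -0.53 ± 0.07), the mRNA export receptor gene NXF1 (-0.46 ± 0.06 and -0.49 ± 0.06), the nuclear pore gene RANBP2 (-0.44 ± 0.07 and -0.46 ± 0.06) and the arginine methyltransferase gene PRMT1 (-0.29 ± 0.08 and -0.34 ± 0.07). The share of all tested genes lower in both was not counted, and both knockdowns were compared with the same 3 controls. Another splicing factor gene, SRSF3, rose in both (0.26 ± 0.05 and 0.12 ± 0.05). THOC5, of the mRNA export complex THO, rose in both (0.60 ± 0.07 and 0.56 ± 0.06). TNPO3, the import receptor of CFIm68, rose in both knockdowns (0.39 ± 0.05 and 0.15 ± 0.05) and in CFIm25 overexpression (0.46 ± 0.05).

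In CFIm25 overexpression 3 partners rose and 7 fell (median -0.14), against 27.7% and 29.1% of all tested genes. Of the members lower in both knockdowns, U2AF2 (-0.49 ± 0.05), SNRNP70 (-0.66 ± 0.08), NXF1 (-0.48 ± 0.06), RANBP2 (-0.40 ± 0.06) and PRMT1 (-0.24 ± 0.07) fell here too. SRSF7, also lower in both knockdowns, rose (0.26 ± 0.05), and TRA2A did not pass (0.073 ± 0.065, edgeR adjusted p = 0.35). In CFIm68 overexpression 2 rose and 2 fell (median 0.050), against 14.5% and 15.4% of all tested genes, with PRMT5 (-0.19 ± 0.05), another arginine methyltransferase gene, TNPO3 (-0.15 ± 0.05) and SRSF7 (0.14 ± 0.05) the smallest in adjusted p. TNPO3 lost its call without control replicate 2 or CFIm68 overexpression replicates 2 or 3, SRSF7 without control replicates 1 or 2 or CFIm68 overexpression replicates 1 or 2, and PRMT5 without control replicate 3 (-0.12).

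The Nudix family, which shares the fold of NUDT21, had 20 of 22 listed genes tested. In CFIm25 knockdown 6 rose and 5 fell (median -0.023), against 24.4% and 23.2% of all tested genes, and in CFIm68 knockdown 8 rose and 6 fell (0.0024), against 28.3% and 28.1%. In CFIm25 overexpression 6 rose and 3 fell (-0.059), against 27.7% and 29.1%, and in CFIm68 overexpression 2 rose and 1 fell (0.047), against 14.5% and 15.4%. NUDT3, a diphosphoinositol polyphosphate hydrolase gene, went from 301 CPM in control to 206 in CFIm25 and 163 in CFIm68 knockdown (-0.55 ± 0.05 and -0.89 ± 0.05) and to 368 in CFIm68 overexpression (0.29 ± 0.05). NUDT5, an ADP-ribose hydrolase gene, followed the same signs (-0.42 ± 0.05, -0.51 ± 0.05 and 0.30 ± 0.05). NUDT12 fell in both knockdowns (-0.49 ± 0.07 and -0.71 ± 0.06) and rose in CFIm25 overexpression (0.39 ± 0.06). NUDT6 and NUDT18 also rose in CFIm25 overexpression, from 6.53 to 11.3 and from 7.28 to 13.2 CPM. NUDT1 (-0.27 ± 0.10) was the member that fell in CFIm68 overexpression, a call lost without control replicates 2 or 3 or CFIm68 overexpression replicates 1 or 2.

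Genes whose log2 CPM ran most like each member over the 14 libraries were picked by Pearson r among the 9361 genes that averaged 5 CPM or more. The libraries fall into 5 groups, so these r values describe group patterns and carry no test. Among the closest to NUDT21 were GPBP1L1 (r = 0.98), the pantothenate kinase gene PANK1 (0.98), ZCCHC14 (0.97) and SLC38A9 (0.94), a lysosomal amino acid sensor gene. Like NUDT21 they were lowest in CFIm25 knockdown and next lowest in CFIm68 knockdown, over a narrower range. GPBP1L1 was at 242 CPM in control, 141 in CFIm25 and 204 in CFIm68 knockdown, and ZCCHC14 at 229, 170 and 201. Opposite to it were MRPL24 (-0.97), SDHAF4 (-0.95) and the noncoding RNA gene JPX (-0.95), and SDHAF4 went from 5.74 CPM in control to 17.4 in CFIm25 and 11.4 in CFIm68 knockdown. Without the CFIm25 knockdown libraries these 7 values lay between 0.83 and 0.94 in size.

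Closest to CPSF6 were TMEM41A (r = 0.99), ALDH18A1 (0.96), a proline synthesis gene, the chloride channel gene PACC1 (0.96), TAF5 (0.96) and the syndecan gene SDC4 (0.96). SDC4 went from 59.0 CPM in control to 83.0 in CFIm25 knockdown, 40.8 in CFIm68 knockdown and 73.4 in CFIm68 overexpression. Opposite were FOXA1 (-0.96), ARNT (-0.94) and ANKRD40 (-0.91). Without the CFIm68 knockdown libraries ARNT dropped to -0.54, and the others lay between 0.73 and 0.93 in size.

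Among the closest to CPSF7 were the smooth muscle actin gene ACTA2 (r = 0.96), UTP14A (0.96), RABIF (0.96) and BRD1 (0.95). ACTA2 had a wider range than CPSF7, from 8.04 CPM in CFIm25 and 12.9 in CFIm68 knockdown to 26.1 in control and 38.4 in CFIm68 overexpression. Opposite were DOP1B, NDUFV3 and ZNF227 (-0.96, -0.96 and -0.95), of which ZNF227 went from 16.6 CPM in control to 34.7 in CFIm25 knockdown. These are the levels of genes chosen for their likeness and support nothing about it.

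In the overexpression groups a gene's count may hold both its own transcript and one from a construct, and the share of each was not analysed here. CPSF6 contains the MIR1279 locus on the opposite strand within 62 exonic bases, CPSF7 shares 85 exonic bases with AP003108.2 on the opposite strand, and neither partner is in the count table. NUDT21 shares 0 exonic bases with another annotated gene.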

How the data were processed

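HEK 293 RNA was sequenced as 14 libraries prepared with a TruSeq Stranded mRNA kit, per the labels' protocols. The authors deposited unnormalized counts for each gene. Per the submitters' processing notes, cutadapt 1.16, STAR 2.7.1a and the build hg38 were used. No source used here gives the counting tool, its annotation or its strand setting. Groups and replicate numbers came from sample titles. Of 18006 identifiers, 17959 matched a symbol, and positions and lengths came from GENCODE 29.

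Genes were filtered with filterByExpr (minimum count 10, minimum total 15) and libraries scaled by TMM (factors 0.973 to 1.05). All 14 libraries entered 1 quasi-likelihood fit, with a coefficient for each group, in edgeR 4.0.16 (R 4.3.3), first tested on simulated data. In each of 10 comparisons, Benjamini-Hochberg adjustment ran over the 12080 tested genes, at a threshold of 0.05. Standard errors come from the quasi-likelihood statistic. Ratios were compared by exact permutation over libraries. Within groups, log2 CPM correlated across genes at 0.993 to 0.997. The members and lists were chosen with earlier results of these data known. Named genes are the members, the 2 nearest tested genes on each side, the 5 most and 3 least correlated genes, and in each list the 3 called members with the smallest adjusted p in each comparison with control. A few genes that these rules name are not reported here. Alternatives were median-ratio size factors, 2 other filters, a replicate block, DESeq2 1.42.0, limma 3.58.1 with voom, fits to the compared groups alone, removal of medians of 50 neighbouring genes, other lengths, 0.5 added to counts, and leaving out each library. Correlations without a member's own knockdown group were added after the data were seen. Figures used matplotlib 3.10.9.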

Additional observations from a re-analysis of the deposited data

How the results depend on the processing

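Of 660 values of the 3 members under the alternatives, 648 kept direction and call, and CPSF6 kept both in all 220. Many of the 660 leave out a library outside the compared groups. Such a library bears on the value only through the filter, the scaling and the shared spread. For NUDT21 the exception was CFIm68 overexpression with neighbour medians removed (0.096). CPSF7 in CFIm25 overexpression, at -0.0088, changed sign with a filter of 1 CPM in 3 libraries (0.0029) and with neighbour medians removed (0.066), and ran from -0.037 to 0.041 without single libraries. CPSF7 in CFIm68 against CFIm25 overexpression passed with the replicate number as a block (0.11, edgeR adjusted p = 0.035), changed sign with neighbour medians removed (-0.030) and ran from 0.052 to 0.14 without single libraries, passing without CFIm25 overexpression replicate 3 or CFIm68 overexpression replicate 2. In CFIm68 against CFIm25 knockdown it ran from 0.16 to 0.21, and the count of all genes past the threshold, 2929, was 1465 without CFIm25 knockdown replicate 1, where the lone library is assumed to vary like the other groups.

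With longest coding transcript lengths the ratio of NUDT21 to the large subunits differed from control by -3.50 in CFIm25 and -0.42 in CFIm68 knockdown, against -3.61 and -0.30. Of 128 ratio values, 126 moved by less than 1 SD, but many of these could not move. Leaving out a library of a group outside the comparison cannot change a ratio's difference from control. Other lengths likewise cannot change that of CPSF6 to CPSF7. Lists without single libraries ran from 3 to 5 lower for 3' end processing and 3 to 6 higher for the Nudix family in CFIm25 knockdown, and from 1 to 4 higher for partners in CFIm68 knockdown, lowest without CFIm25 knockdown replicate 1 for the former and without CFIm68 knockdown replicate 2 for the latter. In CFIm68 overexpression they ran from 0 to 3 higher and 1 to 3 lower for partners and 0 to 2 lower for the Nudix family, and DESeq2 called 1 partner higher there. With the replicate block 5 Nudix genes were lower in CFIm25 overexpression, in place of 3, and called genes rose 1.02 to 1.13 times over the comparisons. Same-numbered libraries correlated with their control at -0.063 to 0.043 and 6 of 11 correlated best with their own number, so the numbers were not taken to pair the libraries. The matches lay mostly in the CFIm68 groups, at 0.016 to 0.043, against -0.063 to 0.043 in the CFIm25 groups. A pairing of the CFIm68 groups with control was not tested.

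Neighbours whose small uncalled changes took the other sign without single libraries were, in CFIm68 overexpression, OGFOD1 (-0.0016 to 0.082), the carboxypeptidase M gene (-0.13 to 0.019), YEATS4 (-0.069 to 0.032), FRS2 (-0.064 to 0.10) and TMEM216 (-0.092 to 0.065; -0.0018 with median-ratio size factors). Others were MDM2 (-0.17 to 0.062) and CYB561A3 (-0.032 to 0.51) in CFIm25 overexpression, FRS2 in CFIm25 knockdown (-0.10 to 0.060) and CYB561A3 in CFIm68 knockdown (-0.13 to 0.30).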
